A study of Mus musculus with 24 samples.

Results

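The 9 genes described here are expressed by absorptive enterocytes, the lipid- and nutrient-absorbing cells of the small intestinal lining. They are Fabp1, Fabp2, Apoa1, Apoa4, Rbp2, Phgr1, Sis, Aldh1b1 and Ckmt1. They were chosen by name and matched by the gene symbol in each transcript identifier, and estimated counts were summed over the transcripts of a gene. All 9 were found among the 55401 genes of the files, and all 9 passed the filter on low counts that left 3799 genes for testing.

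The series holds 24 bulk RNA sequencing libraries made by the SMART-seq2 protocol from male C57BL/6 mice 11 weeks old, in 6 groups of 4. In 3 groups the mice had propyzamide, a plant microtubule herbicide, and libraries were taken at 24 h after anti-CD3, at 3 h after anti-CD3 or without stimulation. The other groups received empty vehicle and were taken at the same stages. Anti-CD3 antibody binds the CD3 chains of the T cell receptor and activates T cells. No source used here gives the tissue, a sort of cells, the doses or the route. Nothing says whether the 4 libraries of a group came from separate animals, so p-values measure the spread between these samples only. By their names, unstimulated libraries and the vehicle 3 h libraries share 1 index, and all remaining libraries share another. Whether it marks a batch is not stated, and for 24 h against unstimulated the index and the stage cannot be told apart. The same holds for 3 h against unstimulated with propyzamide and for 24 h against 3 h with vehicle. At 3 h the index also cannot be told apart from the treatment, and it enters the interaction at 3 h.

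An enterocyte takes up fatty acids and monoglycerides at its brush border, carries them through the cytosol on fatty acid binding proteins and re-esterifies them. It then exports the lipid in chylomicrons that carry apolipoproteins. Dietary retinol follows a parallel route on its own carrier protein, and sugars are cut to monosaccharides by hydrolases anchored in the brush border. Fabp1 and Fabp2 encode the liver-type and intestinal-type fatty acid binding proteins. Apoa1 and Apoa4 encode apolipoproteins of high-density lipoprotein and chylomicrons and are neighbours on chromosome 9. Rbp2 encodes the cellular retinol-binding protein of the gut. Sis encodes sucrase-isomaltase, a disaccharidase of the brush border. Ckmt1 encodes the ubiquitous mitochondrial creatine kinase, and Aldh1b1 a mitochondrial aldehyde dehydrogenase that in human colon is best known from cells near the crypt base. Phgr1 encodes a small proline-, histidine- and glycine-rich protein found in intestinal epithelium.

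On GRCm38, Fabp1 spans chr6:71199827-71205023 on the plus strand and Fabp2 spans chr3:122895072-122899506 on the plus strand. Apoa1 lies at chr9:46228580-46230466 and Apoa4 at chr9:46240696-46243459, both on the plus strand. Rbp2 lies at chr9:98486115-98509781, Phgr1 at chr2:118772769-118778165, Ckmt1 at chr2:121357714-121363737 and Aldh1b1 at chr4:45799022-45804604, all on the plus strand. Sis occupies chr3:72888557-72967863 on the minus strand. The main transcript of Sis has 48 exons and 5953 bases, and that of Aldh1b1 has 2 exons, 1 of them coding. The main transcripts of Fabp1, Fabp2, Rbp2 and Phgr1 have 4 exons each.

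RefSeq promoter windows on GRCm38.p6, which run from 250 bases before a transcription start to 50 bases after it, were found for all 9 genes, with 2 windows for Ckmt1. Windows of 4 genes are shown. Fabp1, Rbp2 and Sis were picked as genes of lipid, retinol and sugar uptake whose windows hold recognition letters of intestinal transcription factors. The window of Aldh1b1 is shown as 1 that holds none. Those of Apoa1, Apoa4 and Phgr1, which are not shown, hold none either. Capitals mark any of 5 motifs on either strand. These were CAAAGTC for HNF4, GTTAAT as an HNF1 half-site, ATAAA for CDX, AGATAA for GATA and TATAAA for the TATA box, which contains the CDX letters.
Fabp1, chr6:71199629-71199928, plus strand: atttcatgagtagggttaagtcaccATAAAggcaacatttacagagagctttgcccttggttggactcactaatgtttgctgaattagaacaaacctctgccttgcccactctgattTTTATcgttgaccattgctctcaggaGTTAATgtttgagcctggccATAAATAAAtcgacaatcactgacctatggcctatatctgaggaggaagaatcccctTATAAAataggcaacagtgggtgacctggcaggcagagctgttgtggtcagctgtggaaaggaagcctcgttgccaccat
Rbp2, chr9:98490287-98490586, plus strand: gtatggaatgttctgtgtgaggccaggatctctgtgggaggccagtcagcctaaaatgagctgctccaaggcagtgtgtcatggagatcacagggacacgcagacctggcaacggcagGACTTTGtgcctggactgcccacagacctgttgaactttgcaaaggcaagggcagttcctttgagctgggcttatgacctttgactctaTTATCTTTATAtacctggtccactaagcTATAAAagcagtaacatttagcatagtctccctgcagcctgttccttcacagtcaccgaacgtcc
Sis, chr3:72967814-72968113, minus strand: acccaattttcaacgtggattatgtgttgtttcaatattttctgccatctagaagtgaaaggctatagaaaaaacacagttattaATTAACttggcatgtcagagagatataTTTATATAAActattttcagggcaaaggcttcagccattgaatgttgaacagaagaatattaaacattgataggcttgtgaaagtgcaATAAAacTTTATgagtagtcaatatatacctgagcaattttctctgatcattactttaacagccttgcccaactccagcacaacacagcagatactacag
Aldh1b1, chr4:45798772-45799071, plus strand: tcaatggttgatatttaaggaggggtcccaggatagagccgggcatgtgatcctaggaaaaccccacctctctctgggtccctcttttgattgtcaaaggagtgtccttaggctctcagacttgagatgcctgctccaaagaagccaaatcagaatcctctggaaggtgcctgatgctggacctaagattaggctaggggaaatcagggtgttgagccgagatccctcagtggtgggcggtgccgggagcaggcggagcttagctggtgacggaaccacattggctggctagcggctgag
In the Fabp1 window a TATA box begins 30 bases before the start and an HNF1 half-site 107 bases before it. The Rbp2 window holds the only HNF4 match and the only GATA match of the 9 genes. The CDX letters stood in the windows of 5 of the 9 genes, against 40.0% of all 32851 promoter windows. TATAAA stood in those of 4 genes against 13.6% of windows, GTTAAT in 2 against 7.10%, AGATAA in 1 against 11.2% and CAAAGTC in 1 against 4.44%. A match is a stretch of letters and not a shown binding site.

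Sequencing depth bears on every value below. Total estimated counts ran between 438750 and 2072030 in 23 libraries, and counts in named protein-coding genes made up 3.76% to 9.66% of them. Replicate numbers follow the listed order of the libraries in a group and are not in the labels, so equal numbers do not pair libraries. Replicate 3 of the propyzamide 24 h group, called the deepest library here, had 9812460 counts, 30.0% of them in named protein-coding genes. It also held 14112 of the 17106 counts of the 9 genes (82.5%). Mitochondrial transcripts made up 5.51% of its counts and 5.49% in propyzamide unstimulated replicate 3, the other library high in the 9 genes, against 0.522% to 4.05% in the other 22 libraries. The part of this share in the results was not tested. A floor of 3 counts corresponded to between 1.31 and 6.17 CPM in the 23 libraries and to 0.0937 CPM in the deepest. CPM here use TMM-scaled library sizes, and named-gene CPM use the counts in named protein-coding genes as the total. Because the deepest library differs from its 3 group mates in these genes, the results of the 24 h groups are given with it and without it. Leaving it out removes the only 24 h library with a high sum of the 9 genes. Calls and p-values without it depend on that choice and are a description.

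Summed over the 9 genes, the level was low in 7 of the 8 libraries taken 24 h after anti-CD3. It was 17.9, 15.4, 441 and 21.8 CPM in the propyzamide 24 h libraries, the third value being the deepest library, and 8.29, 13.0, 13.7 and 3.44 CPM in the vehicle 24 h libraries. Unstimulated libraries had 185, 61.2, 675 and 181 CPM with propyzamide and 108, 108, 97.0 and 140 CPM with vehicle. No library other than the deepest reached at 24 h the lowest unstimulated value, 61.2 CPM. At 3 h the libraries had 93.1, 71.3, 18.7 and 91.1 CPM with propyzamide and 59.4, 30.2, 176 and 59.9 CPM with vehicle. These 3 h values overlapped the unstimulated ones in both treatments.

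**Figure D1:**
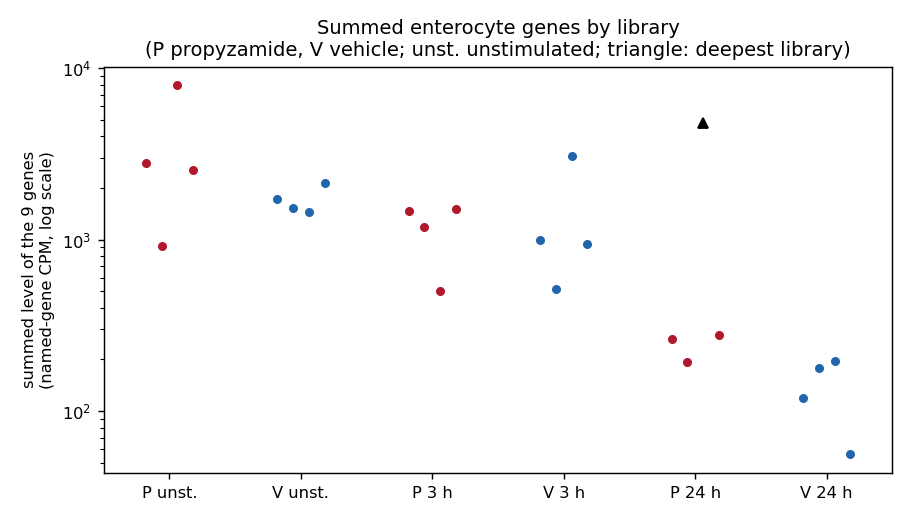
Summed level of the 9 enterocyte genes in named-gene CPM, on a log scale, 1 point per library, for propyzamide (red) and vehicle (blue) at each stage. The 7 other 24 h libraries lie between 55.8 and 276.7, below every unstimulated library, while the deepest library (triangle) lies at 4798.

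With all 24 libraries and the filter on low counts, none of the 9 genes was called in any of the 12 comparisons (edgeR quasi-likelihood test, Benjamini-Hochberg adjusted p of 0.05 or less). Without the deepest library, the only 24 h library with a high sum of the 9, all 9 fell at 24 h, taken as the mean over both treatments. For this comparison the 24-library fit called 2.37% of the tested genes in either direction. All 9 log2 fold changes were negative there, between -1.20 and -4.06, with adjusted p between 0.0569 and 0.224, and all 9 had an unadjusted p under 0.05. DESeq2 called 1 of the 9 on the same libraries, and edgeR with no filter called 6 of the 9 lower, against 0.199% of 48267 genes. In the fit of 23 libraries, 9 of the 9 fell against a background of 2.08% of 3893 genes called lower. No member reached the filter's level of 9.28 CPM in any vehicle 24 h library, so each gene entered the test through other groups, and the count of 9 is a description of genes that had to be higher somewhere else. Leaving out a further library gave 8 or 9 calls.

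**Figure D2:**
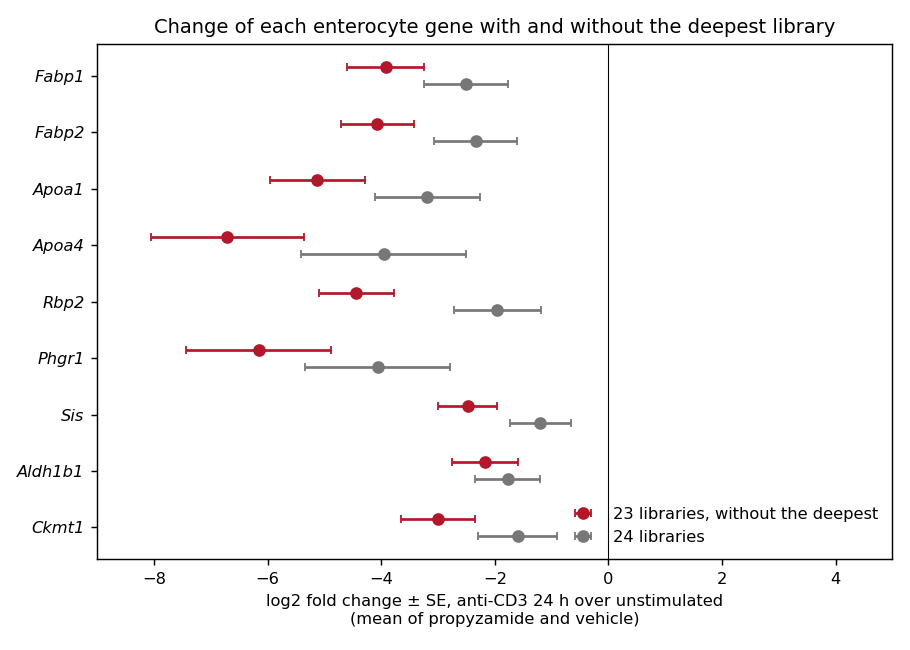
Log2 fold change with standard error of each gene, anti-CD3 24 h over unstimulated as the mean of propyzamide and vehicle, from 23 libraries (red) and 24 libraries (grey). All 18 estimates are negative, and each lies further from 0 without the deepest library.

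The fatty acid binding proteins were the most abundant of the 9 transcripts by counts. Fabp1 had 6.51, 6.32, 112 (deepest) and 1.04 CPM in propyzamide 24 h libraries and 0, 2.99, 5.71 and 0 CPM in vehicle 24 h libraries. Unstimulated libraries had 86.8, 12.6, 187 and 49.1 CPM with propyzamide and 29.7, 21.0, 25.1 and 36.3 CPM with vehicle. Apart from the deepest library, the 24 h and unstimulated values did not overlap within either treatment. The log2 fold change was -3.92 ± 0.67 (SE) over both treatments without the deepest library, with an edgeR adjusted p of 7.58e-04, and -2.50 ± 0.74 with all 24 libraries, adjusted p 0.0597. In raw counts the vehicle groups held 7 at 24 h and 197 without stimulation, a level 14.03-fold lower after scaling (95% interval 6.68 to 35.3, counting error only).

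Fabp2 had 1.63, 2.71, 88.4 (deepest) and 2.08 CPM in propyzamide 24 h libraries and 0.682, 4.48, 2.28 and 0 CPM in vehicle 24 h libraries. It had 18.4, 11.7, 138 and 23.5 CPM in unstimulated propyzamide libraries and 22.3, 23.7, 17.4 and 36.9 CPM in unstimulated vehicle libraries. The groups were separate in both treatments once the deepest library was set aside. The log2 fold change over both treatments was -4.07 ± 0.64 without it, edgeR adjusted p 3.69e-04. Fabp2 was also the only gene of the 9 to pass within vehicle alone in the 23-library fit, at -3.76 ± 0.88 with an edgeR adjusted p of 0.0378.

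Both apolipoprotein transcripts were at or near 0 at 24 h. Apoa1 had 0, 0, 47.4 (deepest) and 2.08 CPM in propyzamide 24 h libraries and 0, 0, 1.14 and 0 CPM in vehicle 24 h libraries. Its unstimulated values were 15.03, 0.900, 118 and 27.9 CPM with propyzamide and 7.43, 12.7, 7.68 and 11.9 CPM with vehicle. The vehicle groups did not overlap, while propyzamide unstimulated replicate 2 lay within the 24 h range. The log2 fold change over both treatments without the deepest library was -5.12 ± 0.83, edgeR adjusted p 4.15e-04. The vehicle 24 h libraries held 1 count of Apoa1 against 74 in unstimulated vehicle libraries, a ratio of 0.0271 after scaling (95% interval 6.77e-04 to 0.156).

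Apoa4 had no count in any vehicle 24 h library and in 3 of the 4 propyzamide 24 h libraries, against 35.1 CPM in the deepest. It had 8.35, 0, 67.4 and 11.3 CPM in unstimulated propyzamide libraries and 5.78, 4.82, 3.68 and 10.8 CPM in unstimulated vehicle libraries. With the 24 h group set at a floor of 3 counts, Apoa4 was 7.31-fold lower with vehicle (lower end of the exact 95% interval 5.70). The same floor gave 27.7-fold lower with propyzamide without the deepest library (lower end 22.2). Since no count was seen at 24 h in these libraries, the floor values are bounds and not estimates. Propyzamide unstimulated replicate 3 held 121 of the 136 unstimulated counts behind the value with propyzamide. The fitted log2 fold change over both treatments, -6.71 ± 1.34 with an edgeR adjusted p of 0.00539, rests on those zeros and is not a bound.

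Rbp2, the retinol carrier, had the smallest p of the 9 in the mean comparison without the deepest library. Its values were 1.63, 0, 54.8 (deepest) and 0 CPM in propyzamide 24 h libraries and 0.682, 0, 2.28 and 0 CPM in vehicle 24 h libraries. Unstimulated libraries had 16.7, 6.30, 56.3 and 23.5 CPM with propyzamide and 4.95, 11.0, 6.66 and 10.8 CPM with vehicle. Without the deepest library no 24 h value reached an unstimulated value of the same treatment. The log2 fold change over both treatments was -4.44 ± 0.67, edgeR adjusted p 1.89e-04, against -1.96 ± 0.77 and 0.163 with all 24 libraries.

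Sis, which carries the sucrase-isomaltase of the brush border, was lower at 24 h with a fitted change nearer to 0 than that of most members. It had 1.63, 1.81, 26.9 (deepest) and 1.04 CPM in propyzamide 24 h libraries and 3.51, 5.57, 0 and 1.72 CPM in vehicle 24 h libraries. The unstimulated libraries had 5.01, 15.3, 33.0 and 10.1 CPM with propyzamide and 10.7, 10.2, 8.33 and 6.24 CPM with vehicle. The highest vehicle 24 h value, 5.57 CPM, lay just under the lowest unstimulated one. The log2 fold change over both treatments without the deepest library was -2.48 ± 0.52, edgeR adjusted p 0.00572. Part of the Sis counts fell on transcripts annotated as retained introns. Their share was 12.9% of 861 counts in the deepest library, 25% of 4 counts in the other propyzamide 24 h libraries and 56.1% of 9.87 counts in the vehicle 24 h libraries. It was 33.2% with propyzamide and 57.5% with vehicle at 3 h, and 27.2% with propyzamide and 26.5% with vehicle without stimulation.

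Both mitochondrial enzymes were lower at 24 h without the deepest library. Ckmt1 had 1.63, 1.81, 34.8 (deepest) and 1.04 CPM in propyzamide 24 h libraries and 2.05, 0, 0 and 0 CPM in vehicle 24 h libraries, against 16.7, 4.498, 20.6 and 5.59 CPM in unstimulated propyzamide libraries and 9.08, 5.70, 7.17 and 8.51 CPM in unstimulated vehicle libraries. Its groups did not overlap apart from the deepest library, and its log2 fold change over both treatments was -3.00 ± 0.65 without it, edgeR adjusted p 0.00713. Aldh1b1 had 4.88, 2.71, 28.5 (deepest) and 14.5 CPM in propyzamide 24 h libraries and 1.36, 0, 2.28 and 1.72 CPM in vehicle 24 h libraries. Unstimulated libraries had 15.03, 8.10, 31.8 and 15.6 CPM of Aldh1b1 with propyzamide and 11.6, 16.7, 13.8 and 9.65 CPM with vehicle. It was separate between the vehicle groups and overlapped between the propyzamide groups, because replicate 4 of propyzamide 24 h stood at 14.5 CPM. Its log2 fold change over both treatments without the deepest library, -2.17 ± 0.58, was the nearest to 0 of the 9, with an edgeR adjusted p of 0.0292.

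Phgr1 had no count in any 24 h library except the deepest, which held 403 counts or 12.6 CPM. Unstimulated libraries had 3.34, 1.80, 22.3 and 14.5 CPM with propyzamide and 6.61, 2.19, 7.17 and 8.51 CPM with vehicle. With the 24 h group set at the floor of 3 counts, the level was 11.6-fold lower with propyzamide without the deepest library (lower end of the exact 95% interval 9.13). With vehicle it was 6.98-fold lower (lower end 5.43). These floor values are bounds and not estimates. Propyzamide unstimulated replicate 3 held 40 of the 57 unstimulated propyzamide counts. The edgeR adjusted p over both treatments was 0.00666 without the deepest library. Over the 9 genes the median fitted log2 fold change in this comparison was -4.07, and it was -3.83 with Apoa4 and Phgr1 set at their floor values. The median over all genes tested in the same fit was -0.01.

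**Figure D3:**
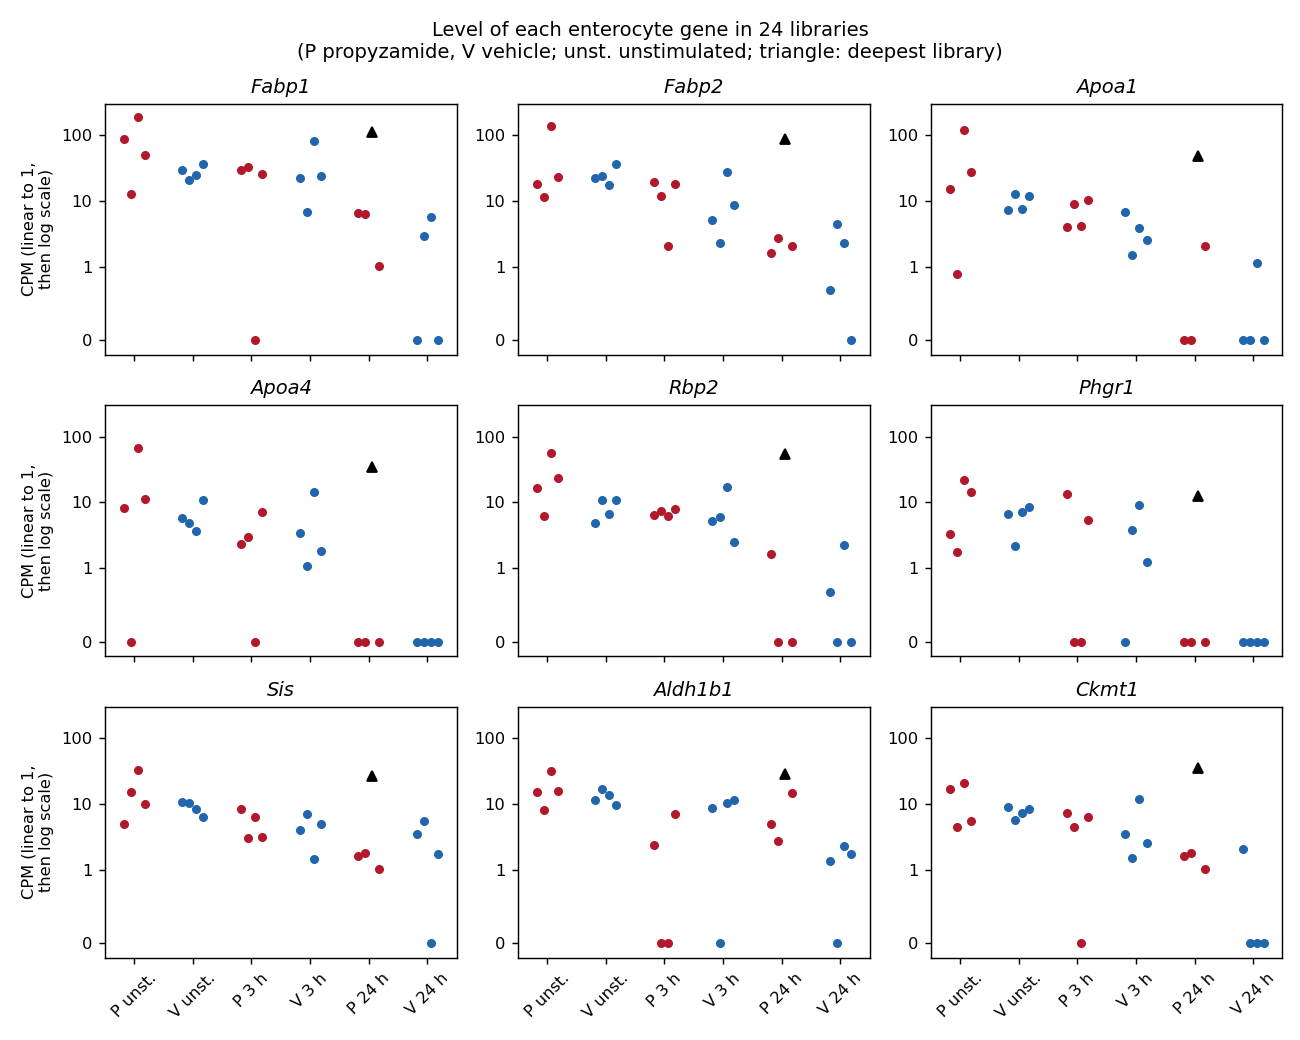
TMM-scaled CPM of each of the 9 genes in 24 libraries, 1 point per library, for propyzamide (red) and vehicle (blue) at 3 stages, on an axis linear to 1 and logarithmic above. In each panel the deepest library (black triangle) stands above the other 24 h libraries, and Apoa4 and Phgr1 are at 0 in all 7 of those.

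Taken within each treatment, 24 h against unstimulated gave fewer calls. With propyzamide the 24-library fit called 0.0790% of the tested genes and none of the 9, with log2 fold changes between -1.46 and 0.00, no unadjusted p under 0.05 and no call by DESeq2. Without the deepest library 4 of the 9 fell, against a background of 0.334% called lower. In that fit these 4 genes reached the filter's level of 9.31 CPM in no propyzamide 24 h library. They entered the test through other groups, so the count of 4 is a description. Rbp2 changed by -5.70 ± 1.02 (edgeR adjusted p 0.0117), Apoa1 by -5.58 ± 1.14 (0.0228), Fabp2 by -4.38 ± 0.94 (0.0315) and Fabp1 by -4.16 ± 0.95 (0.0399). Sis lay just outside at -3.34 ± 0.80, edgeR adjusted p 0.0504. Leaving out 1 more library ended these calls for propyzamide unstimulated replicate 3, the other high library, and for propyzamide 24 h replicate 2 (0 of the 9 called each), and left 1 call without propyzamide 24 h replicate 1 and 2 without replicate 4.

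With vehicle, the 24-library fit called 0.421% of the tested genes and none of the 9, with log2 fold changes between -1.65 and -6.90 and edgeR adjusted p between 0.158 and 0.704. Here 8 of the 9 had an unadjusted p under 0.05, and DESeq2 called 1. With no filter edgeR called 7 of the 9 lower, against 0.0953% of genes. The median was -3.74, or -3.20 with Apoa4 and Phgr1 at their floor values, and -0.03 over all genes tested. Without the deepest library 1 of the 9 fell, against 0.385% of genes called lower, and that call was lost when any 1 library of either vehicle group was left out. This comparison holds no propyzamide library, so the deepest library enters it only through steps shared by all libraries, such as the spread, the scaling and the filter. Without that library Apoa4 moved from -6.90 to -5.77 and Phgr1 from -6.86 to -5.73.

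The separation of the raw groups showed the same contrast. All 9 genes were lower in every vehicle 24 h library than in any unstimulated vehicle library, against 4.50% of all tested genes. In propyzamide no gene of the 9 was separate with the deepest library included. Without it 6 were, against 4.37% of tested genes: Fabp1, Fabp2, Rbp2, Phgr1, Sis and Ckmt1. No vehicle 24 h library reached the filter's level for any of the 9, nor any low propyzamide 24 h library for these 6. They passed the filter through other libraries, so these counts, and those against 3 h below, are a description.

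At 3 h none of the 9 genes was called against unstimulated by DESeq2 or by edgeR with the filter on low counts. With no filter edgeR called Apoa1 lower with propyzamide, at -2.57 ± 0.60 with an adjusted p of 0.0172, against 0.0932% of 48267 genes. With propyzamide the log2 fold changes against unstimulated were all negative, between -0.99 and -2.67, with edgeR adjusted p of 0.141 or more and 7 unadjusted p under 0.05. The fit called 0.711% of the tested genes. In the 23-library fit the smallest edgeR adjusted p was 0.0943, and 1.59% of tested genes were called. With vehicle they lay between -1.54 and 0.24, with no unadjusted p under 0.05 and 0.290% of the tested genes called, and 0.539% without the deepest library. Aldh1b1 was lower in every propyzamide 3 h library than in any unstimulated propyzamide library, at 2.40, 0, 0 and 7.06 CPM against a lowest unstimulated value of 8.10, while 5.16% of tested genes were separate in that direction. Apoa1 was lower in every vehicle 3 h library than in any unstimulated vehicle library, at 6.92, 1.52, 3.94 and 2.52 CPM against a lowest unstimulated value of 7.43, with 3.74% of tested genes separate. The remaining genes overlapped. The 3 h and unstimulated libraries differ in index with propyzamide and share it with vehicle, and the part of the index was not tested.

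Set against 3 h, the 24 h levels were again low. With vehicle all 9 log2 fold changes were negative, between -0.66 for Sis and -6.50 for Apoa4. No member was called, with 5 unadjusted p under 0.05 and 1 call by DESeq2, and edgeR called 0% of the tested genes (462 at an unadjusted p under 0.05, 80 by DESeq2). Fabp1 was called lower with no filter on low counts, against 0.0394% of genes. In the 23-library fit none of the 9 was called, against 0.205% of tested genes, and 8 had an unadjusted p under 0.05. Fabp1, Apoa1, Apoa4 and Rbp2 were lower in every vehicle 24 h library than in any vehicle 3 h library, against 5.37% of tested genes. Fabp1 had 7 counts at 24 h and 102 at 3 h, a level 15.2-fold lower after scaling (95% interval 7.11 to 38.7, counting error only). With propyzamide the direction turned on the deepest library. With it 8 of the 9 log2 fold changes were positive (9 with RLE scaling) and the highest was 2.23, none was called by edgeR, 1 was by DESeq2, 1 unadjusted p was under 0.05, and the background was 15.2% of tested genes called. Without it Rbp2 fell by 3.81 on the log2 scale, edgeR adjusted p 0.0459, against 2.11% of genes called lower. None of the other 8 was called, and the Rbp2 call was lost when propyzamide 24 h replicate 2 or 4, or any propyzamide 3 h library, was left out as well. Still, Apoa1, Rbp2 and Sis were lower in each of those 3 libraries than in any propyzamide 3 h library, against 9.84% of tested genes.

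Propyzamide against vehicle gave no call for any of the 9 genes at any stage with edgeR and the filter on low counts, with or without the deepest library, and 0% of tested genes were called at each stage. At 24 h all 9 log2 fold changes were positive with 24 libraries, between 1.82 and 7.75, with edgeR adjusted p between 0.322 and 0.486, although all 9 had an unadjusted p under 0.05 and DESeq2 called 1. With no filter on low counts, edgeR called 8 of the 9 higher with propyzamide at 24 h on 24 libraries, against 0.122% of 48267 genes, and 0 of the 9 without the deepest library. Without the deepest library, and leaving out Apoa4 and Phgr1, which were then at 0 in both groups, they lay between -0.87 for Rbp2 and 2.39 for Aldh1b1, 5 positive and 2 negative. Aldh1b1 was the 1 gene of the 9 higher in every propyzamide 24 h library than in any vehicle 24 h library, against 2.42% of tested genes with the deepest library and 2.84% without it. In the 23-library fit its log2 fold change was 2.39 ± 0.97, with an unadjusted p of 0.0207, the only 1 under 0.05 among the 9, and an edgeR adjusted p of 0.857 over the 3893 genes tested.

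Without stimulation all 9 log2 fold changes of propyzamide over vehicle were positive, between 0.47 and 2.05, with an edgeR adjusted p of 1 for each, 1 unadjusted p under 0.05 and no call by DESeq2. In the 23-library fit they lay between 0.49 and 2.08, with an edgeR adjusted p of 0.989 for each and 4 unadjusted p under 0.05. Replicate 3 of that propyzamide group held 1211 of its 1552 counts of these genes. At 3 h the log2 fold changes were between -1.27 and 1.02 and none passed by edgeR, DESeq2 or an unadjusted p under 0.05. None passed at 3 h in edgeR's 23-library fit either, and no unadjusted p was under 0.05. The interaction of propyzamide with anti-CD3 called 0% of tested genes and none of the 9 at either time. At 24 h it was positive for all 9 with 24 libraries, between 0.90 and 5.88, with 2 unadjusted p under 0.05 and 1 call by DESeq2. Without the deepest library 5 of the 7 genes with counts at 24 h were negative. At 3 h all 9 were negative, between -0.28 and -2.28, with no call by either tool and no unadjusted p under 0.05, and without the deepest library 1 unadjusted p was under 0.05.

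Levels of different genes were compared as deposited TPM, which are per transcript length. In the deepest library Fabp1 led at 659 TPM, followed by Rbp2 at 243.9, Fabp2 at 239, Apoa1 at 119, Phgr1 at 76.2, Ckmt1 at 57.8, Apoa4 at 44.2, Aldh1b1 at 27.5 and Sis at 19.8 TPM. In unstimulated vehicle libraries Fabp1 had 40.0 ± 11.9 TPM and Fabp2 17.2 ± 7.62 TPM (mean ± SD, n = 4). Next came Rbp2 at 9.30 ± 4.87, Phgr1 at 8.85 ± 4.27 and Apoa1 at 6.28 ± 2.59 TPM, with overlapping ranges of mean ± SD. Ckmt1 at 3.41 ± 1.07, Aldh1b1 at 3.20 ± 1.12, Sis at 2.43 ± 1.05 and Apoa4 at 2.02 ± 1.21 TPM formed the lowest set, again with overlapping ranges. The genes were measured in the same libraries, and Ckmt1 was above Apoa4 in each of these.

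The make-up of the summed counts differed between the low 24 h libraries and the rest. Aldh1b1 made up 40.8% of the 49 counts of the 9 genes in the 3 low propyzamide 24 h libraries, 5.7% in unstimulated propyzamide libraries and 6.5% in the deepest library. Replicate 4 held 14 of those 20 Aldh1b1 counts, and without it the share was 21.4% of 28 counts. In the vehicle 24 h libraries Sis made up 28.3% of 34.9 counts, against 7.8% in unstimulated vehicle libraries. Retained-intron transcripts held 56.1% of the Sis counts in the former and 26.5% in the latter. Fabp1 kept a share between 20.1% and 39.9% in all of these sets. The counts at 24 h are few, and the shares are given as a description.

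**Figure D4:**
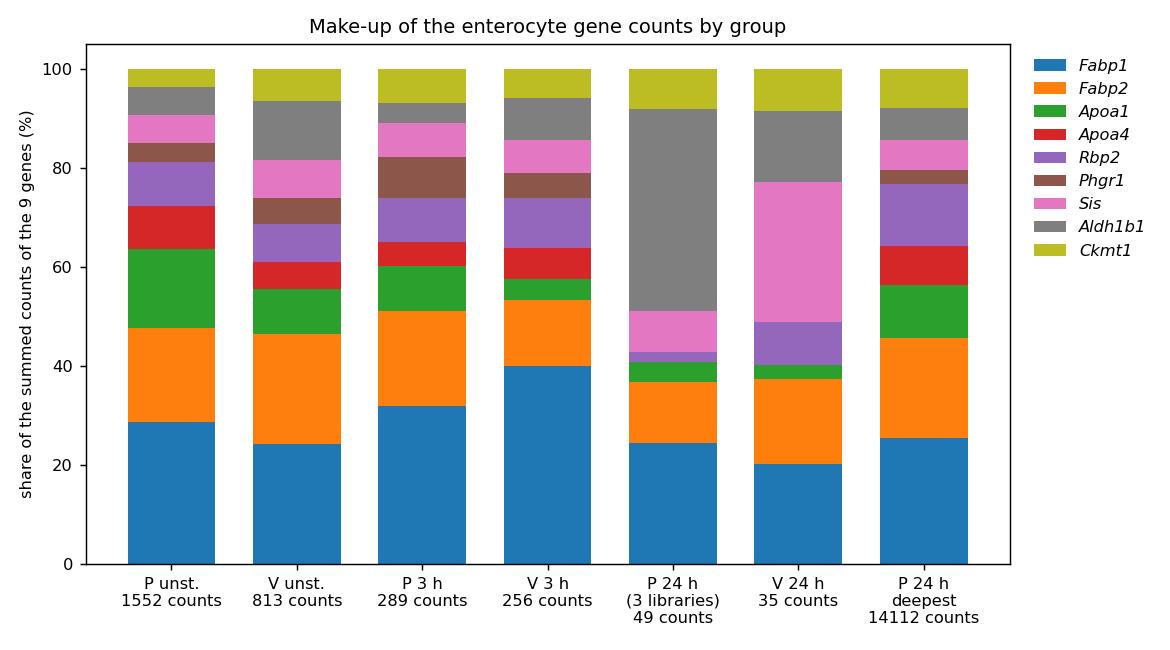
Share of the summed estimated counts of the 9 genes taken by each gene, per group, with the deepest library shown apart from its 3 group mates and the total count under each bar. Aldh1b1 takes 6.5% in the deepest library and 5.7% in unstimulated propyzamide libraries. Ckmt1 takes 7.89% and 3.67% in these, and Rbp2 12.4% and 8.95%. Aldh1b1 takes 40.8% in the 3 other propyzamide 24 h libraries (21.4% without replicate 4). Sis takes 28.3% with vehicle at 24 h, where 56.1% of its counts fell on retained-intron transcripts.

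Across libraries the 9 genes varied together. Pearson's r between the log2 CPM of 2 members ranged between 0.366 and 0.914 over the 36 pairs and 24 libraries, with a median of 0.774, and between 0.287 and 0.902 with a median of 0.751 over 23 libraries. The closest pair over 24 libraries was Apoa1 and Apoa4, the neighbours on chromosome 9, and the loosest was Sis and Aldh1b1. The median r of a member with the other 8 over 23 libraries was lowest for Sis at 0.546 and Aldh1b1 at 0.588 and was 0.745 or higher for the other 7. These points share libraries and depth, so r is a description.

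Among 2457 other named protein-coding genes, the 8 most like the mean of the 9 members over 24 libraries were Ces2e (r = 0.923), Lgals4 (0.915), Lgals2 (0.898), Areg (0.892), Idh1 (0.868), Dmbt1 (0.867), Cldn3 (0.866) and Cdh17 (0.866). The median over all 2457 was 0.094. Ces2e encodes a carboxylesterase, Lgals4 and Lgals2 encode galectins of gut epithelium, and Cldn3 and Cdh17 encode a claudin and a cadherin of epithelial junctions. Over 23 libraries the same 8 had r between 0.841 and 0.912.

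Other genes of the absorptive pathway were mostly too low to test. A list gene could pass the filter through groups where it was high. The counts of list genes called, here and below, are therefore a description. In the fit without the deepest library, 2.08% of all genes tested were called lower at 24 h in the mean of both treatments. Of 26 genes of lipid absorption and chylomicron assembly, 5 passed the filter and 1 of them fell in that comparison. That gene was Mttp, which loads lipid onto apolipoprotein B, at -2.53 ± 0.62 with an edgeR adjusted p of 0.0154. Apob itself was below the filter. It had 2 counts at 24 h in the 3 low propyzamide libraries and 33 in unstimulated propyzamide libraries. In vehicle it had 6 at 24 h and 38 without stimulation. Summed, the 26 lipid genes had vehicle medians of 977 named-gene CPM at 24 h and 1636 without stimulation, where the 9 genes had 149 and 1623. With propyzamide they had 611 to 1223 in the 3 low 24 h libraries and 1172 to 3905 without stimulation, which overlap. Of 21 brush border genes, 2 were tested, and Anpep, which encodes aminopeptidase N, fell by 4.34 on the log2 scale, edgeR adjusted p 0.0292. The values of Mttp and Anpep with all 24 libraries are not given here. The brush border genes summed to vehicle medians of 373 named-gene CPM at 24 h and 945 without stimulation. Of 24 transporter genes 3 were tested and none passed. Slc10a2, the ileal bile acid transporter, had -1.24 ± 0.47. The transporter genes summed to vehicle medians of 988 named-gene CPM at 24 h and 1350 without stimulation. With propyzamide they had 661 to 956 in the 3 low 24 h libraries and 937 to 1774 without stimulation, which overlap. None of 15 genes of retinoid and vitamin handling was tested. They summed to vehicle medians of 196 named-gene CPM at 24 h and 552 without stimulation.

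In 30 genes of enterocyte metabolism and detoxification, 5 of the 8 tested fell without the deepest library, against 2.08% of all genes tested, and 1 of the 8 with all 24, against 0.921%. Ces2e had a log2 fold change of -5.49 ± 0.92 and Cps1, the carbamoyl phosphate synthetase, -2.02 ± 0.47 without the deepest library. Of 21 regulators of absorptive enterocytes only Elf3, an epithelial ETS factor, was tested, and it fell both without the deepest library (-2.83 ± 0.49, edgeR adjusted p 7.58e-04) and with it (-2.58 ± 0.48, 0.00227).

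Most tested markers of a broad epithelium list moved with the 9 genes. The list has 20 genes, of which Vil1 is also counted among the brush border genes and Elf3 among the regulators. Of 12 tested, 9 fell at 24 h without the deepest library and 3 with it, against 2.08% and 0.921% of all genes tested. Their medians were -2.49 and -1.68 on the log2 scale (-0.01 over all genes in either fit). The tested markers could pass the filter through groups where they were high, so these counts and medians are a description. Lgals4 had -3.98 ± 0.53, Cldn3 -4.49 ± 0.65 and Cldn7 -3.41 ± 0.55 without the deepest library. Lgals3 was not called, at -0.40 ± 0.49. The summed markers had 633.8 to 1599 named-gene CPM in the 3 low propyzamide 24 h libraries, 410 to 1056 in vehicle 24 h libraries, 2698 to 8174 in unstimulated propyzamide libraries and 3313 to 4120 in unstimulated vehicle libraries. The deepest library had 6678. In bulk libraries fewer cells of a type and less RNA per cell cannot be told apart.

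Per 100 counts of these epithelial markers, the 9 genes gave 30.7, 30.4 and 17.3 counts in the 3 low propyzamide 24 h libraries, 71.9 in the deepest, and 11.3, 43.6, 32.5 and 13.6 in vehicle 24 h libraries. Unstimulated libraries gave 55.2, 34.2, 97.4 and 52.5 with propyzamide and 41.7, 46.1, 40.4 and 60.7 with vehicle. The propyzamide groups were separate apart from the deepest library, at the nearest by 30.7 against 34.2, where 30.7 rests on 11 counts of the 9 genes. The vehicle groups overlapped in 1 library, replicate 2 at 24 h, which rests on 20 epithelial counts. Vehicle 24 h replicate 4, at 13.6, rests on 2 counts of the 9 genes and 14.7 epithelial counts. At 3 h the ratio ran between 35.5 and 82.6 with propyzamide and between 21.8 and 78.4 with vehicle, overlapping the unstimulated range.

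**Figure D5:**
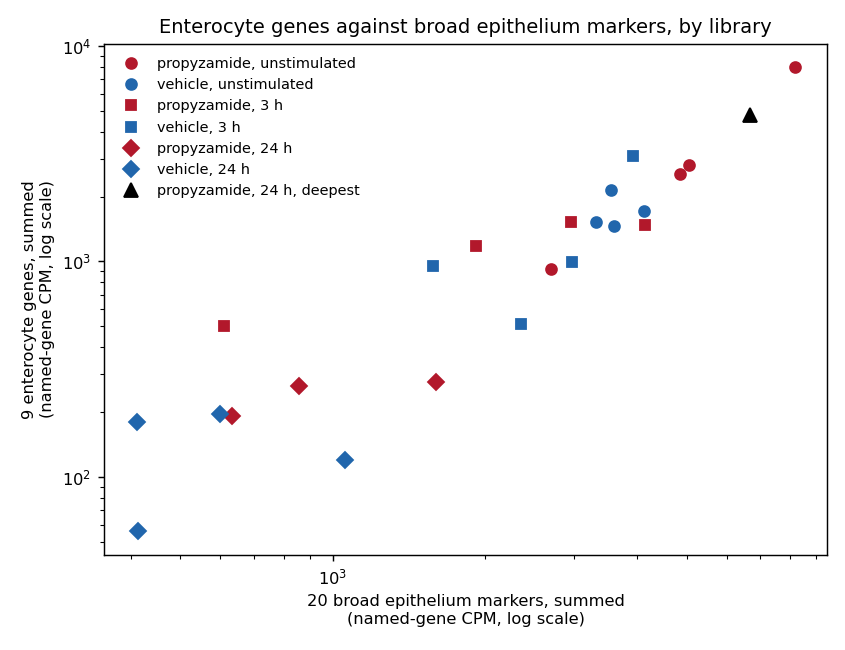
Summed counts of the 9 enterocyte genes against those of 20 broad epithelium markers, both as named-gene CPM on log scales, 1 point per library. The 7 low 24 h libraries (diamonds) lie at the lower left, and the deepest library (triangle) lies at the upper right beside propyzamide unstimulated replicate 3.

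Marker lists of other cells were set beside the deepest library and its 3 group mates. The 10 goblet cell markers summed to 455 named-gene CPM in it, within the 317 to 648 of its group mates. The 15 Paneth cell markers summed to 5976 in it, below the 14939 to 32854 of its group mates. Crypt base and progenitor markers, at 1604, lay above the 396 to 831 of the mates, and colon epithelium markers, at 439, above their 56.8 to 218.6. Of 7 goblet markers tested 3 fell at 24 h in each fit, and of 14 Paneth markers 6 fell without the deepest library and 5 with it, against 2.08% and 0.921% of all genes tested without and with it. The 8 plasma cell markers summed to 3221 to 10508 named-gene CPM in the 3 propyzamide mates, 9892 in the deepest library and 3126 to 3621 in vehicle 24 h libraries, against 9802 to 16371 in unstimulated propyzamide and 8732 to 15126 in unstimulated vehicle libraries. Of 5 plasma cell markers tested 2 fell in each fit. Of 12 T cell markers 4 were tested and none was called. All 12 T cell markers summed to medians of 1196 and 973 named-gene CPM in the propyzamide and vehicle 24 h groups, and 535 and 421 in the propyzamide and vehicle unstimulated groups.

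Liver also expresses Fabp1 and Apoa1. Of 14 hepatocyte markers none was tested, and their sum lay between 20.5 and 267.8 named-gene CPM over all libraries and at 160.4 in the deepest. Trf held 304.5 of their 471.7 counts in the deepest library and 111.9 counts in the other 23. Cyp2e1 had 42.8 counts in the deepest and 23.9 in the other 23, Hp 39 and 31, and Alb 12 and 6, where Fabp1 had 3594 and 856. Apoc1 had no count in any library, and Apoh had 10 in the deepest and none elsewhere. The part of these cell types in the results was not tested.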

How the data were processed

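The library protocol was SMART-seq2, per the labels, and transcripts were quantified with kallisto on GRCm38, per the submitters' processing notes, with no version given. Per the file headers, the deposited files give estimated counts (expected counts) for 142604 transcripts and TPM. A further deposited column of the class other is the transcript length in bases. No filter of the authors is named in the labels.

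Estimated counts were summed to 55401 genes by the gene identifier and rounded for testing. The test was that of edgeR 4.0.16 (R 4.3.3), with 1 coefficient per group over 24 libraries, filterByExpr (minimum count 10), TMM scaling and the quasi-likelihood F test. A call needed an adjusted p (Benjamini-Hochberg) of at most 0.05 over the 3799 genes tested (3893 without the deepest library). Standard errors were taken from the F statistic. Named protein-coding genes are those without numbered or clone names, olfactory and vomeronasal receptors and mitochondrial genes excepted. Coordinates came from the GENCODE M21 annotation of GRCm38 and promoters from RefSeq on GRCm38.p6. Intervals of 95% (exact) and floors of 3 counts cover counting error only, since the reads carry no molecular identifiers.

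Alternatives were RLE scaling, no filter, DESeq2 1.42.0, named protein-coding genes only, and leaving out each library. The same were added on 23 libraries after the data were seen. The 9 genes, the gene lists and the tests were chosen with earlier results of these data known. All 9 genes are named, with up to 4 genes of a list by smallest p in the mean 24 h comparison and the 8 most alike genes. Genes named outside that rule (Apob, Lgals3, Alb, Apoc1, Apoh, Trf, Cyp2e1, Hp) were chosen after their values were seen. The scripts were tested on simulated data.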

Additional observations from a re-analysis of the deposited data

Results flagged for a closer look

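In 13 of 60 groups of 4 values (9 genes and their sum in 6 groups), 1 library stood apart by a gap to its neighbour above Dixon's 95% critical value. Chance flags about 1 in 20 such groups where values are independent and normal. Here the genes vary together, the sum is made of them and many values are 0, so the 13 cannot be measured against that rate. The deepest library, propyzamide 24 h replicate 3, accounts for 9 of them. It had 112 CPM of Fabp1, 88.4 of Fabp2, 47.4 of Apoa1, 35.1 of Apoa4, 54.8 of Rbp2, 12.6 of Phgr1, 26.9 of Sis, 34.8 of Ckmt1 and 441 of the 9 genes summed, where the median of its 3 group mates was 6.32 for Fabp1, 2.08 for Fabp2, 1.63 for Sis and Ckmt1, 0 for the other 4 genes and 17.9 for the sum. Its depth, 9812460 counts, and its share of counts in named protein-coding genes, 30.0%, also stood apart, its mitochondrial share of counts was 5.51%, against at most 4.05% in 22 other libraries, and their part in these levels was not tested. Aldh1b1, at 28.5 CPM in that library, was not flagged.

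Propyzamide unstimulated replicate 3 stood apart for Fabp2 at 138 CPM and for Apoa4 at 67.4 CPM, where the medians of the other 3 libraries were 18.4 and 8.35 CPM. Its mitochondrial share was 5.49%. In the vehicle 24 h group the flags rest on 1 to 3 counts. Replicate 3 had 1.14 CPM of Apoa1 and replicate 1 had 2.05 CPM of Ckmt1, and the other 3 libraries of each had none.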

How the results depend on the processing

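No paired analysis was possible because the labels give the libraries no replicate numbers. With 24 libraries the number of the 9 genes called at 24 h against unstimulated, mean of both treatments, was 0, and became 9 without the deepest library, 7 with named protein-coding genes only, 6 with no filter on low counts, 1 with DESeq2 and 0 with RLE. Leaving out 1 library with the tested genes held fixed gave 0 to 9, with 9 without the deepest, 3 without propyzamide 3 h replicate 3, propyzamide unstimulated replicate 2 or vehicle 3 h replicate 2 or 3, 2 without propyzamide unstimulated replicate 4 or vehicle 3 h replicate 4, and 1 without propyzamide 24 h replicate 1. Within vehicle the count was 7 with no filter, 3 with named genes only, 1 with DESeq2, 1 without the deepest library and 0 to 1 leaving out 1 library. Within propyzamide it was 4 without the deepest library with the filter repeated and 0 to 5 leaving out 1 library, the 5 being without the deepest. For 24 h against 3 h with vehicle it was 1 with DESeq2, with named genes only or with no filter. With propyzamide it was 1 with DESeq2, RLE or without the deepest library, and 0 to 1 leaving out 1 library. For 3 h with propyzamide it was 1 with no filter. For propyzamide against vehicle at 24 h it was 8 with no filter and 1 with DESeq2, and for the interaction at 24 h 1 with DESeq2.

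On 23 libraries the mean comparison kept 9 calls under RLE, DESeq2, named genes only and no filter, and 8 to 9 leaving out 1 more library. Within propyzamide the 4 became 7 with DESeq2 and with named genes only, and 0 to 5 leaving out 1 more. Within vehicle the 1 became 3 with DESeq2, 8 with named genes only, 7 with no filter and 0 with RLE, and 0 to 4 leaving out 1 more. For 24 h against 3 h with propyzamide the 1 became 0 with RLE or no filter, and 0 to 2 leaving out 1 more. RLE moved the median of all genes by up to 0.33 on the log2 scale, in 24 h against 3 h with propyzamide, where 0 members were negative with RLE and 1 with TMM.

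Within propyzamide at 24 h, several log2 fold changes changed sign. Ckmt1, at 0.00, had -0.27 with named genes only, -2.87 without the deepest library, and -2.90 to 0.49 leaving out 1 library. Leaving out 1 library gave -4.41 to 0.60 for Fabp2, -7.66 to 0.78 for Apoa4, -5.61 to 0.065 for Apoa1, -5.72 to 0.14 for Rbp2, -1.25 to 0.13 for Aldh1b1, the positive values coming without propyzamide unstimulated replicate 3. The cause was not tested. Low counts limit precision: 3 counts are 1.31 to 6.17 CPM in 23 libraries.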
